A study of Mus musculus with 10 samples.

Results

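The panel described here was 60 protein-coding genes of mouse chromosome 18, followed as a gauge of how the transcript output of 1 chromosome varied between embryonic stem cell libraries. Its members were taken from a list of symbols with a mean of at least 50 normalized counts over 7 libraries. All 60 listed genes met that limit and all lie on chromosome 18 in the GENCODE M21 annotation of GRCm38. They were 60 of 54456 genes in the table and 60 of the 266 protein-coding chromosome 18 genes that passed the same limit. The lowest mean was 102 normalized counts (Hdhd2) and the highest 14613 (Etf1), so no member lay near the limit. The members were selected on the ratios themselves: a list of chromosome 18 genes was proposed after the chromosome had been seen to stand higher in replicate 2 of the line conv-dSVA_F&D than in its replicate 1 and in the wild type. Those ratios are therefore given as a description, with no test.

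All libraries were stranded, ribosomal RNA-depleted total RNA from C57BL/6J mouse embryonic stem cells, grown on gelatin in serum and LIF with CHIR99021, which inhibits GSK3, and PD0325901, which inhibits MEK. The 3 engineered lines had 2 libraries each, and the line MK6, labelled wild type, had 1. In the converted lines the Taf1 gene, on chromosome X, carries a loxP site in an intron and a partly human replacement allele, and the cells were treated with a Cre plasmid. SVA elements are primate retrotransposons, and an SVA insertion in human TAF1 underlies X-linked dystonia parkinsonism. The line conv-dSVA_F&D lacks both SVA_F and SVA_D, conv-dSVA_F lacks SVA_F, and conv-dSVA_D lacks SVA_D. All the converted lines share the loxP site, the replacement allele and the Cre treatment, which the wild type does not have. Each genotype has 1 line name and no clone in the labels, so genotype and line cannot be told apart, and the labels do not say whether replicates were separate cultures. Replicate numbers only name the libraries. The other 3 of the 10 samples in the series, a line before conversion and 2 striatal samples, were not analysed here.

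Most genes on a chromosome are read out in proportion to the number of its copies, so a gain or loss of a whole chromosome shifts many transcripts by a similar, modest ratio. Mouse embryonic stem cells can gain chromosomes in culture. Subunits of a complex whose genes lie on different chromosomes then differ in relative output, which is why dosage is often followed gene by gene beside partner subunits. DNA copy number was not measured in the data used here.

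Replicate 2 of conv-dSVA_F&D had 16588467 recovered reads on genes and replicate 1 had 23541885, while the other 5 libraries had from 21274792 to 26562418. The library with the fewest reads also had the fewest genes above 0, 19428, against 21560 to 22943 in the other 6. Taf1, the edited gene, had 1088 normalized counts in replicate 2 and 1116 in replicate 1 of conv-dSVA_F&D, 501 and 589 in conv-dSVA_F, 362 and 418 in conv-dSVA_D, and 2898 in the wild type. It was lower in each of the 6 converted libraries than in the wild type and similar in both conv-dSVA_F&D replicates. All 12 naive pluripotency markers had a mean of at least 50, and their summed level lay between 150475 and 192243 normalized counts. That sum was 166788 in replicate 2 and 177299 in replicate 1 of conv-dSVA_F&D. Summed fibroblast markers (8 genes, 1 of them at 0 in all libraries) lay between 80.8 and 347, with 198 in replicate 2 and 119 in replicate 1 of conv-dSVA_F&D. Pdgfrb, itself a chromosome 18 gene, gave 110 and 79.7 of these, so that sum is not independent of the chromosome. Primitive endoderm markers (7) lay between 102 and 351, with 247 in replicate 2 and 218 in replicate 1 of conv-dSVA_F&D. Neural progenitor markers (7) lay between 1616 and 2616, with 2417 in replicate 2 and 1616 in replicate 1 of conv-dSVA_F&D. Trophoblast markers (7) summed to 1319 in replicate 2 and 849.7 in replicate 1 of conv-dSVA_F&D (720.4 to 1202 in the other 5). Whether these differences take part in the results below was not tested.

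The panel stood higher in 1 library. Relative to the wild type, its median log2 ratio of normalized count plus 1 was 0.57 in replicate 2 and 0.01 in replicate 1 of conv-dSVA_F&D. In conv-dSVA_F the medians were -0.04 and -0.02, and in conv-dSVA_D they were -0.01 and 0.00 (replicates 1 and 2 of each). Between the conv-dSVA_F&D replicates the median over the members was 0.50, a 1.42-fold difference, with quartiles of 0.35 and 0.65. The same ratio of replicate 2 over replicate 1 had a median of 0.02 in conv-dSVA_F and 0.04 in conv-dSVA_D.

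**Figure D1:**
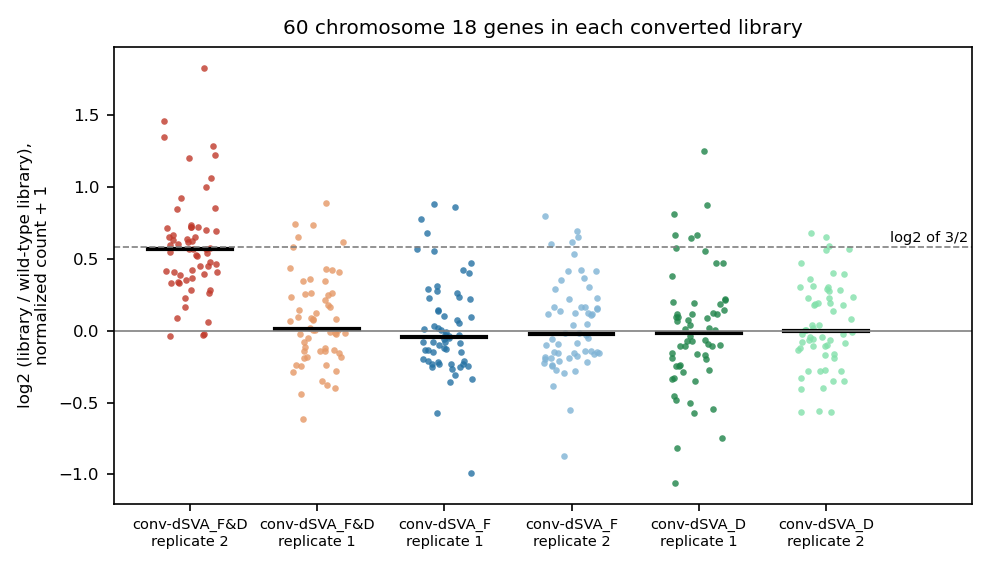
Log2 ratio of each of the 60 chromosome 18 genes to the wild-type library (vertical axis), in each of the 6 converted libraries (horizontal axis). Each point is 1 gene, black bars are medians, and the dashed line marks log2 of 3/2 (0.58) for scale. The median is 0.57 in replicate 2 of conv-dSVA_F&D and lies from -0.04 to 0.01 elsewhere.

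Between the conv-dSVA_F&D replicates, 48 of 60 members were at least 25% higher in replicate 2 (a log2 ratio of 0.32 or more), 1 was lower by at least the same ratio, and 11 lay between. Of all 11612 genes with a mean of at least 50, 16.5% were at least 25% higher in that pair, and their median log2 ratio was -0.01. In the conv-dSVA_F pair 3 members were as much higher (12.3% of all genes), and in the conv-dSVA_D pair 4 were (12.8%). Replicate 2 of conv-dSVA_F&D was the highest of the 7 libraries for 52 members. Replicate 1 lay inside the range of the 5 other libraries for 32 members, above it for 18 and below it for 10. The 2 libraries of conv-dSVA_F&D, which carry the same labels, thus differed from each other over the panel by more than either other pair. In bulk RNA, a larger share of cells with a higher level and a higher level in every cell cannot be told apart.

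**Figure D2:**
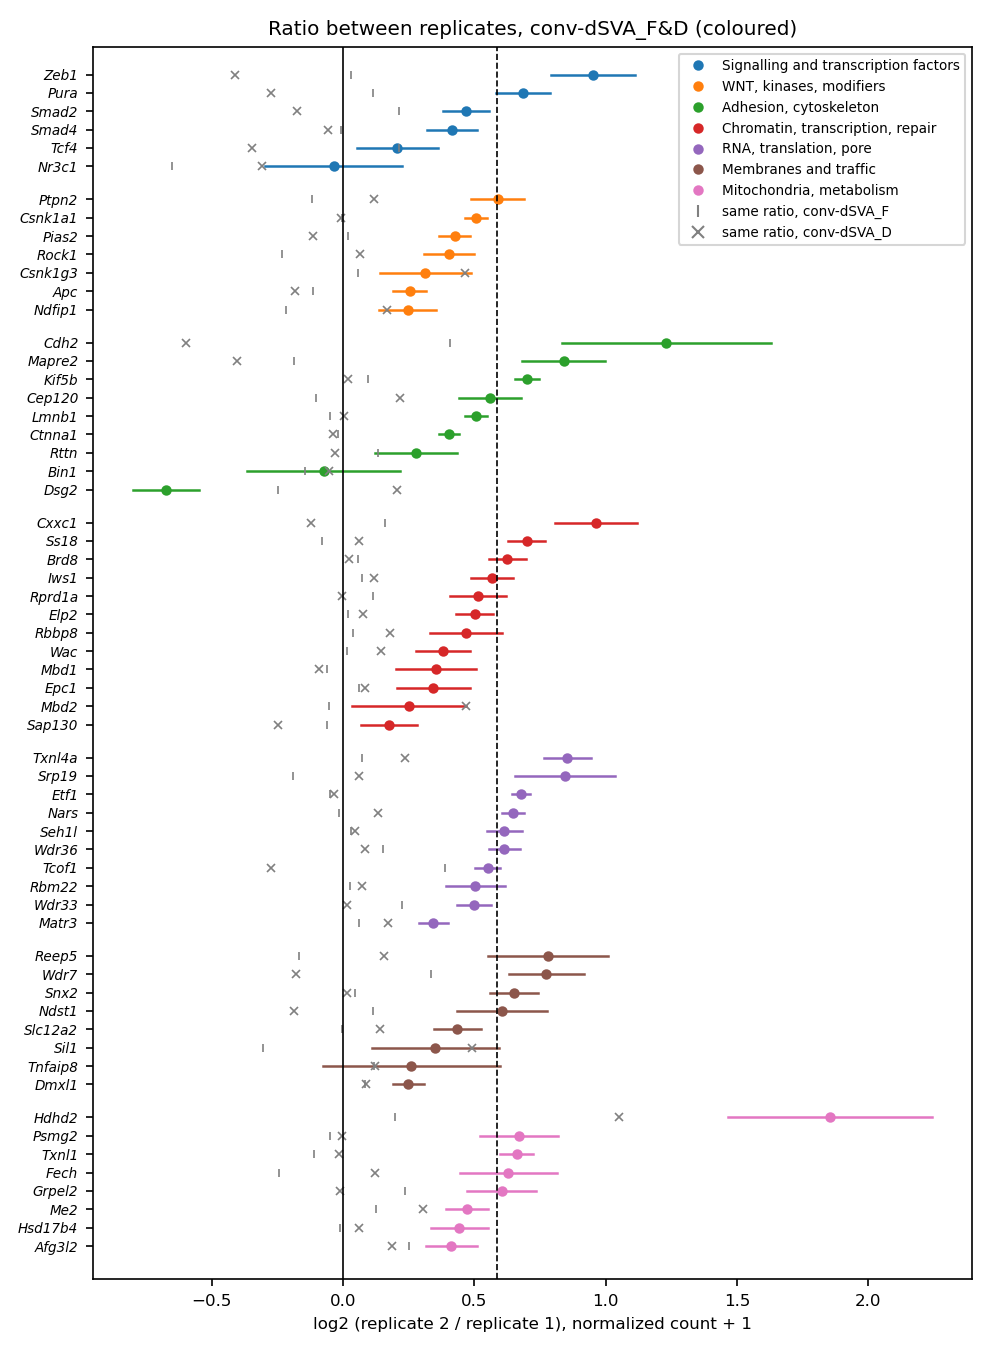
Log2 ratio of replicate 2 over replicate 1 (horizontal axis) for each member, in 7 role groups. Coloured points are conv-dSVA_F&D with lines for 95% counting intervals, grey bars and crosses are the same ratio in conv-dSVA_F and conv-dSVA_D, and the dashed line marks log2 of 3/2. Coloured points lie right of 0 for 57 of the 60 genes.

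The panel has 6 signalling mediators and transcription factors, and 4 of them were at least 25% higher in conv-dSVA_F&D replicate 2 than in replicate 1 (median 0.44). Smad2, an effector of activin, Nodal and TGF-beta receptors, had 2757 normalized counts in replicate 2 and 1993 in replicate 1 of conv-dSVA_F&D, 1614 and 1872 in conv-dSVA_F, 1809 and 1603 in conv-dSVA_D, and 1669 in the wild type. Its partner Smad4, the SMAD shared by those and the BMP branch, had 2346 normalized counts in replicate 2 and 1759.8 in replicate 1 of conv-dSVA_F&D, 1743 and 1735 in conv-dSVA_F, 2029 and 1952 in conv-dSVA_D, and 1299 in the wild type. For both genes conv-dSVA_F&D replicate 2 was the highest library, and the ratio between its replicates was 0.47 for Smad2 and 0.41 for Smad4. The wild type was the lowest library for Smad4 and lay among the others for Smad2. Zeb1, a zinc-finger repressor of E-cadherin known from epithelial-mesenchymal transition, had 990.5 normalized counts in replicate 2 and 512 in replicate 1 of conv-dSVA_F&D, 571 and 583 in conv-dSVA_F, 666 and 500.4 in conv-dSVA_D, and 604 in the wild type. The 6 libraries other than conv-dSVA_F&D replicate 2 lay between 500.5 and 666, and the replicate ratio of 0.95 was the highest of this group. Pura, a single-stranded nucleic acid binding protein, had a ratio of 0.68.

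For the remaining members of that group replicate 2 was less than 25% higher, or lower. Tcf4, a basic helix-loop-helix E protein, had 832 normalized counts in replicate 2 and 721 in replicate 1 of conv-dSVA_F&D, 599 and 694 in conv-dSVA_F, 847 and 666 in conv-dSVA_D, and 568 in the wild type. Nr3c1, the glucocorticoid receptor, had 266 normalized counts in replicate 2 and 273 in replicate 1 of conv-dSVA_F&D, 346 and 220.4 in conv-dSVA_F, 322 and 259.6 in conv-dSVA_D, and 202 in the wild type. Both conv-dSVA_F&D replicates lay inside the range of the other libraries for Nr3c1, and for Tcf4 the highest library was conv-dSVA_D replicate 1. The replicate ratio was 0.21 for Tcf4 and -0.04 for Nr3c1.

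Of the 7 members that act in WNT signalling or modify proteins, 4 were at least 25% higher, the lowest share of the 7 role groups. Their ratios had the smallest SD of the role groups (0.13), from 0.25 (Ndfip1) to 0.59 (Ptpn2), with a median of 0.40. Apc, the scaffold of the complex that marks beta-catenin for destruction, had 4981 normalized counts in replicate 2 and 4179 in replicate 1 of conv-dSVA_F&D, 3523 and 3253 in conv-dSVA_F, 3741 and 3296 in conv-dSVA_D, and 3282 in the wild type. Csnk1a1, casein kinase 1 alpha, which primes beta-catenin within that complex, had 12755 normalized counts in replicate 2 and 8985 in replicate 1 of conv-dSVA_F&D, 7423 and 7395 in conv-dSVA_F, 8016 and 7979 in conv-dSVA_D, and 8580.1 in the wild type. Conv-dSVA_F&D replicate 2 was the highest library for both, its replicate 1 came next, and the replicate ratio was 0.25 for Apc and 0.51 for Csnk1a1. The culture medium contains an inhibitor of GSK3, another kinase of the same complex. Ndfip1, an adaptor for NEDD4-family ubiquitin ligases, had 1648 normalized counts in replicate 2 and 1389.9 in replicate 1 of conv-dSVA_F&D, 1488 and 1279.6 in conv-dSVA_F, 1039.9 and 1167 in conv-dSVA_D, and 1548 in the wild type. For this gene the wild type lay above conv-dSVA_F&D replicate 1 and below its replicate 2. Ptpn2, a tyrosine phosphatase that dampens JAK-STAT signalling, and the SUMO ligase gene Pias2 (0.42) were also at least 25% higher, while Csnk1g3, a membrane-bound casein kinase, stood at 0.31.

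The 9 adhesion, cytoskeletal and centriolar members had the largest SD of the role groups (0.55), from -0.67 (Dsg2) to 1.23 (Cdh2) around a median of 0.51. Ctnna1, alpha-E-catenin, which links cadherins to actin, had 14159 normalized counts in replicate 2 and 10705 in replicate 1 of conv-dSVA_F&D, 10704 and 10563 in conv-dSVA_F, 9842 and 9593 in conv-dSVA_D, and 9082 in the wild type. Lmnb1, lamin B1 of the nuclear lamina, had 12115 normalized counts in replicate 2 and 8525 in replicate 1 of conv-dSVA_F&D, 7221 and 6973 in conv-dSVA_F, 7361 and 7375 in conv-dSVA_D, and 7720.1 in the wild type. In both genes conv-dSVA_F&D replicate 2 was highest and its replicate 1 second, though level with conv-dSVA_F replicate 1 for Ctnna1. The replicate ratio was 0.40 for Ctnna1, the member with the highest mean in this group, and 0.51 for Lmnb1. Kif5b, a kinesin-1 heavy chain (0.70), and Mapre2, a microtubule end-binding protein (0.84), were higher still, and the centriole genes Cep120 and Rttn stood at 0.56 and 0.28.

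The cadherins of the panel differed from each other. Cdh2, N-cadherin, had 179.7 normalized counts in replicate 2 and 76.0 in replicate 1 of conv-dSVA_F&D, 51.0 and 68.0 in conv-dSVA_F, 183 and 121 in conv-dSVA_D, and 76.4 in the wild type. Conv-dSVA_D replicate 1 was as high as conv-dSVA_F&D replicate 2 for Cdh2, and the other 5 libraries lay between 51.1 and 121. Dsg2, a cadherin of desmosomes, had 992 normalized counts in replicate 2 and 1583 in replicate 1 of conv-dSVA_F&D, 1482 and 1248 in conv-dSVA_F, 899 and 1035 in conv-dSVA_D, and 1009 in the wild type. Here conv-dSVA_F&D replicate 2 was the second lowest library and its replicate 1 the highest, and Dsg2 was the single member lower by a log2 ratio of 0.32 or more. Bin1, a membrane-bending protein of the amphiphysin family, had 213 normalized counts in replicate 2 and 224 in replicate 1 of conv-dSVA_F&D, 259.5 and 235 in conv-dSVA_F, 123 and 118 in conv-dSVA_D, and 175 in the wild type, with a replicate ratio of -0.07. Its conv-dSVA_D libraries were the 2 lowest, and the conv-dSVA_F&D replicates differed little. Cdh2 and Bin1 had few reads: 129 and 83 for Cdh2 and 153 and 245 for Bin1 in conv-dSVA_F&D replicates 2 and 1.

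Of 12 chromatin, transcription and DNA repair members, 10 were at least 25% higher (median 0.48). Cxxc1, the CpG-binding subunit of SET1 histone methyltransferase complexes, had 1046 normalized counts in replicate 2 and 537 in replicate 1 of conv-dSVA_F&D, 545 and 609 in conv-dSVA_F, 567 and 521 in conv-dSVA_D, and 633 in the wild type. Ss18, a subunit of BAF chromatin remodellers and the most abundant by counts in this group, had 4654 normalized counts in replicate 2 and 2867 in replicate 1 of conv-dSVA_F&D, 3228 and 3057 in conv-dSVA_F, 3245 and 3382 in conv-dSVA_D, and 3407 in the wild type. Conv-dSVA_F&D replicate 2 was the highest library for both, and its replicate 1 was the lowest for Ss18 and among the others for Cxxc1. Their replicate ratios were 0.96 for Cxxc1 and 0.70 for Ss18. Epc1, a subunit of the TIP60 acetyltransferase complex, had 1071 normalized counts in replicate 2 and 844 in replicate 1 of conv-dSVA_F&D, 790.5 and 824 in conv-dSVA_F, 658 and 696 in conv-dSVA_D, and 917 in the wild type. The wild type was the second highest library for Epc1, and the replicate ratio was 0.34. Brd8, a bromodomain subunit of the same complex, stood at 0.62.

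Rprd1a, Sap130 and Mbd2 of this group had both conv-dSVA_F&D libraries above the rest. So did Brd8, Mbd1, Iws1 and Wac, with replicate 1 less far above the next library. For Iws1 it had 2328 normalized counts, against 2323 in the wild type. Rprd1a, which binds the tail of RNA polymerase II, had 1901 normalized counts in replicate 2 and 1331 in replicate 1 of conv-dSVA_F&D, 506 and 548 in conv-dSVA_F, 789 and 787 in conv-dSVA_D, and 1004 in the wild type. The 2 conv-dSVA_F&D libraries were the highest and the 2 conv-dSVA_F libraries the lowest, with a replicate ratio of 0.51 within conv-dSVA_F&D. Sap130, a SIN3 deacetylase complex subunit, had 1687 normalized counts in replicate 2 and 1493 in replicate 1 of conv-dSVA_F&D, 1122 and 1076 in conv-dSVA_F, 1416 and 1193 in conv-dSVA_D, and 808 in the wild type. Its wild-type value was the lowest of the 7, and the conv-dSVA_F&D replicates differed by 0.18. Mbd2, a reader of methylated CpG, had 417 normalized counts in replicate 2 and 349.8 in replicate 1 of conv-dSVA_F&D, 266 and 257 in conv-dSVA_F, 177 and 245 in conv-dSVA_D, and 312 in the wild type, and it too had both conv-dSVA_F&D libraries highest, with a ratio of 0.25. The ratios were 0.35 for Mbd1, also a methyl-CpG binding protein, 0.50 for the Elongator subunit gene Elp2, 0.57 for the elongation factor gene Iws1, 0.47 for Rbbp8, which acts in DNA end resection, and 0.38 for Wac.

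The 10 members of RNA processing, translation and the nuclear pore were all at least 25% higher in conv-dSVA_F&D replicate 2 than in replicate 1, with a median of 0.61. Etf1, the release factor that recognises stop codons, had 19823 normalized counts in replicate 2 and 12385 in replicate 1 of conv-dSVA_F&D, 14239 and 13750.4 in conv-dSVA_F, 13306 and 13006 in conv-dSVA_D, and 15781 in the wild type. Txnl4a, a protein of the U5 spliceosomal particle, had 2969 normalized counts in replicate 2 and 1642 in replicate 1 of conv-dSVA_F&D, 1559 and 1640.1 in conv-dSVA_F, 1489 and 1753 in conv-dSVA_D, and 1874 in the wild type. Nars, the cytosolic asparaginyl-tRNA synthetase, had 13115 normalized counts in replicate 2 and 8379.5 in replicate 1 of conv-dSVA_F&D, 7124 and 7041 in conv-dSVA_F, 7311 and 8008 in conv-dSVA_D, and 8364 in the wild type. Conv-dSVA_F&D replicate 2 was highest for each of these, while its replicate 1 was the lowest library for Etf1. The wild type was second highest for Etf1 and Txnl4a. The replicate ratio was 0.68 for Etf1, 0.85 for Txnl4a and 0.65 for Nars.

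The other 7 members of that group covered a range of 0.34 for Matr3, a nuclear RNA-binding protein, to 0.84 for Srp19, a protein of the signal recognition particle. Between them stood Seh1l of the nuclear pore (0.61), the ribosome biogenesis genes Wdr36 (0.61) and Tcof1 (0.55), the polyadenylation factor gene Wdr33 (0.50) and the splicing factor gene Rbm22 (0.50). For Matr3 the wild type was the highest library.

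Of 8 members that act at membranes or in vesicle traffic, 6 were at least 25% higher (median 0.52). Dmxl1, a rabconnectin that works with the proton pump of vesicles, had 5847 normalized counts in replicate 2 and 4920.4 in replicate 1 of conv-dSVA_F&D, 4784 and 5066 in conv-dSVA_F, 5365 and 5700.1 in conv-dSVA_D, and 4614 in the wild type. Its ratio of 0.25 was the lowest of this group, and conv-dSVA_D replicate 2 was the second highest library. Wdr7, its binding partner, stood at 0.77. Sil1, an exchange factor of the endoplasmic reticulum chaperone BiP, had 349.6 normalized counts in replicate 2 and 274 in replicate 1 of conv-dSVA_F&D, 262 and 212 in conv-dSVA_F, 149 and 209.8 in conv-dSVA_D, and 311 in the wild type, with a ratio of 0.35. Conv-dSVA_F&D replicate 2 was the highest library for Sil1, the wild type second and conv-dSVA_D replicate 1 the lowest. Reep5, which shapes the endoplasmic reticulum (0.78), the sorting nexin gene Snx2 (0.65), the heparan sulfate enzyme gene Ndst1 (0.60) and the ion cotransporter gene Slc12a2 (0.43) were also higher, and Tnfaip8 stood at 0.26.

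The 8 members of mitochondria, proteostasis and metabolism were all at least 25% higher (median 0.62). Txnl1, a thioredoxin-like protein of the proteasome, had 5608 normalized counts in replicate 2 and 3546 in replicate 1 of conv-dSVA_F&D, 4266 and 3955 in conv-dSVA_F, 4198 and 4156 in conv-dSVA_D, and 4665 in the wild type. Its ratio was 0.66, with conv-dSVA_F&D replicate 2 the highest library and replicate 1 the lowest. Hdhd2 had 251 normalized counts in replicate 2 and 68.7 in replicate 1 of conv-dSVA_F&D, 92.8 and 107 in conv-dSVA_F, 41.3 and 86.5 in conv-dSVA_D, and 69.8 in the wild type. It had the highest ratio of the panel, 1.85, but also the lowest mean, with 180 and 75 reads in conv-dSVA_F&D replicates 2 and 1, and it also differed between the conv-dSVA_D replicates (log2 ratio 1.05). The annotation lists 2 entries named Hdhd2, and exons of the entry used here overlap Ier3ip1 on the same strand, so the count of Hdhd2 is uncertain. The remaining 6 lay between 0.41 for the m-AAA protease gene Afg3l2 and 0.67 for the proteasome assembly chaperone gene Psmg2. Between these stood the haem-forming enzyme gene Fech (0.63), the mitochondrial import gene Grpel2 (0.60), the malic enzyme gene Me2 (0.47) and the peroxisomal enzyme gene Hsd17b4 (0.44).

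Spread among the members was smaller where counts were higher. Over the 20 members with the lowest means the ratio between conv-dSVA_F&D replicates had an SD of 0.46, over the 20 in the middle 0.31 and over the 20 with the highest means 0.14, with medians of 0.48, 0.47 and 0.53. Of the 20 most abundant members by counts, 18 were at least 25% higher, the exceptions being Dmxl1 and Apc. The counting error of the ratio had a median of 0.05 and a maximum of 0.20 on the log2 scale. Its 95% interval lay above 0 for 56 members, below 0 for 1 (Dsg2) and held 0 for 3 (Bin1, Nr3c1 and Tnfaip8), and these intervals cover counting error only. The interval held log2 of 3/2 for 19 of the 60. Across the 60 genes, as a description over genes that share the same libraries, the ratio had a Pearson r of -0.12 with log2 mean count, -0.29 with log2 exon length and 0.11 with position (Spearman rho 0.03, -0.22 and 0.03). Exons of 18 members overlapped another annotated gene, on the same strand for 5 of them and on the opposite strand for 15. The median ratio was 0.44 over these 18 and 0.51 over the 42 without overlap, and the strand setting of the counting was not given in the sources used here.

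The rest of chromosome 18 stood with the panel. The 206 other protein-coding genes of the chromosome with a mean of at least 50 had a median ratio of 0.52 between the conv-dSVA_F&D replicates, and 145 of them were at least 25% higher and 8 lower by the same ratio. In the conv-dSVA_F and conv-dSVA_D pairs their medians were 0.02 and 0.01. Medians of the 18 other autosomes in the conv-dSVA_F&D pair lay between -0.08 and 0.01, and that of chromosome X was 0.03. Protein-coding chromosome 18 genes took 3.28% of reads in replicate 2 (Wilson 95% interval 3.275 to 3.292) and 2.35% in replicate 1 (2.347 to 2.359) of conv-dSVA_F&D, against 2.22% to 2.32% in the other 5 libraries; these intervals cover counting error only, not the spread between libraries. Among the other genes, the 3 highest ratios were those of Reep2 (2.39), Spink1 (2.33) and Mcc (2.01), and the lowest was that of Mocos (-1.01). Reep2 and Spink1 had means of 58.3 and 61.6 normalized counts, close to the limit of 50. They passed it only through conv-dSVA_F&D replicate 2, where they had 143 and 244, so their high rank follows in part from the filter.

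The difference was present along the whole chromosome. In 6 successive parts of 44 or 45 genes each, covering 3.27 to 90.6 Mb of GRCm38 chromosome 18, the median ratios were 0.48, 0.55, 0.57, 0.50, 0.58 and 0.46. Between 65.9% and 77.3% of the genes in a part were at least 25% higher. The panel put 5 to 14 members in each part, and medians over these members lay between 0.34 in the third part, which held 5 members, and 0.61 in the fifth part, which held 11. Dsg2, the member with the lowest ratio, and Cdh2, with the second highest, both lie in the first part.

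**Figure D3:**
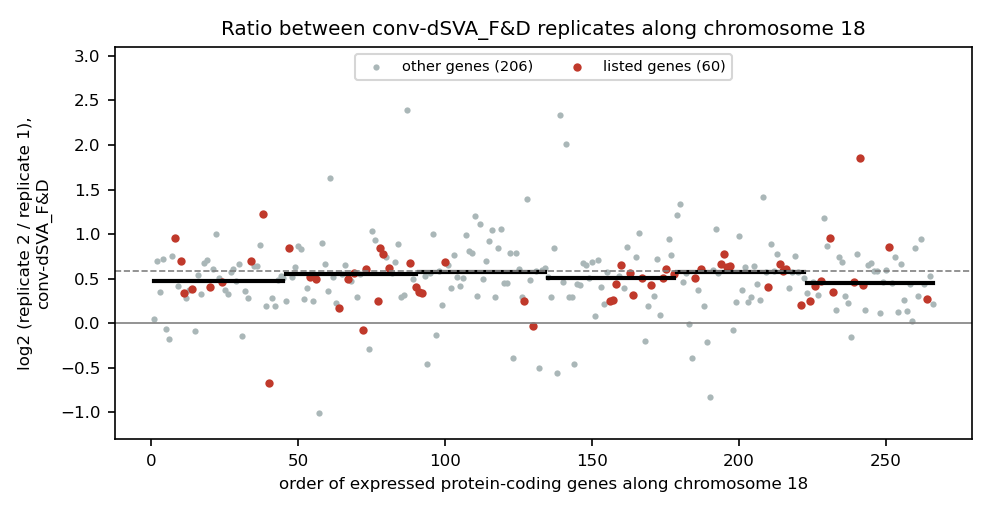
Log2 ratio of conv-dSVA_F&D replicate 2 over replicate 1 (vertical axis) for 266 protein-coding chromosome 18 genes in their order along the chromosome (horizontal axis). Red points are the 60 members, grey points the 206 other genes, black bars the medians of 6 parts and the dashed line log2 of 3/2. The 6 medians lie between 0.46 and 0.58.

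Taken as a set, partner subunits on other chromosomes did not show the ratio of the panel. For 20 complexes and pathways that hold 25 of the members, 156 partner genes on other chromosomes were listed, and 151 of them had a mean of at least 50. Over these 151, the median ratio of replicate 2 over replicate 1 of conv-dSVA_F&D was -0.01, against 0.60 over the 25 members, and 11 partners (7.28%) were at least 25% higher, against 16.5% of all genes. In each of the 20 complexes every chromosome 18 member lay above the median of its partners, and in 16 complexes above the highest partner. These counts follow from values that chose the members and are not a test. The exceptions were the SIN3 complex, where Rbbp7 (0.31) lay above Sap130, the TIP60 complex, where Ruvbl1 (0.37) lay above Epc1, the beta-catenin destruction complex, where Axin2 (0.81) lay above Apc and Csnk1a1, and the mitochondrial import motor, where Pam16 (0.75) lay above Grpel2.

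Single complexes show the size of the difference. In the beta-catenin destruction and cadherin-catenin complexes, Ctnnb1, beta-catenin itself, had 16155 normalized counts in replicate 2 and 17317 in replicate 1 of conv-dSVA_F&D, 15128 and 16031 in conv-dSVA_F, 16889 and 17189 in conv-dSVA_D, and 16178 in the wild type. Its ratio was -0.10, against 0.51 for Csnk1a1 and 0.40 for Ctnna1. Csnk1d, the partner with the next highest mean in the beta-catenin destruction complex, stood at -0.31. Cdh1, E-cadherin, had a ratio of -0.58, against 1.23 for Cdh2, which had 129 and 83 reads in conv-dSVA_F&D replicates 2 and 1. Both are cadherins, so this is not a gap between different kinds of subunit. For Cdh2, conv-dSVA_D replicate 1 was as high as conv-dSVA_F&D replicate 2. In translation termination, Gspt1, the GTPase partner of Etf1, had 4750.2 normalized counts in replicate 2 and 4562 in replicate 1 of conv-dSVA_F&D, 4348 and 4428 in conv-dSVA_F, 4872 and 4141 in conv-dSVA_D, and 3801 in the wild type. The ratio was 0.06 for Gspt1 and 0.12 for the recycling factor gene Abce1, against 0.68 for Etf1. In the U5 particle, Prpf8 stood at -0.13 and Snrnp200 at -0.06, against 0.85 for Txnl4a.

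Further complexes, of chromatin and traffic among others, had the same order for the partners given here. The chromatin complexes SIN3 and TIP60 were among the exceptions named above. The BAF subunit genes Smarcc1 and Smarca4 stood at -0.16 and -0.06, against 0.70 for Ss18. In SET1 complexes Ash2l stood at 0.18 and Wdr5 at -0.09, against 0.96 for Cxxc1. The nuclear lamina genes Tmpo and Lbr stood at 0.01 and -0.11, against 0.51 for Lmnb1, and the nuclear pore genes Ahctf1 and Nup98 at 0.03 and -0.09, against 0.61 for Seh1l. Proton pump genes Atp6v1a and Atp6v1b2 stood at -0.34 and -0.12, against 0.25 for Dmxl1 and 0.77 for Wdr7. Proteasome assembly differed from these: its 4 partner genes had a median of 0.42, with Pomp at 0.47 and Psmg1 at 0.37, against 0.67 for Psmg2.

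**Figure D4:**
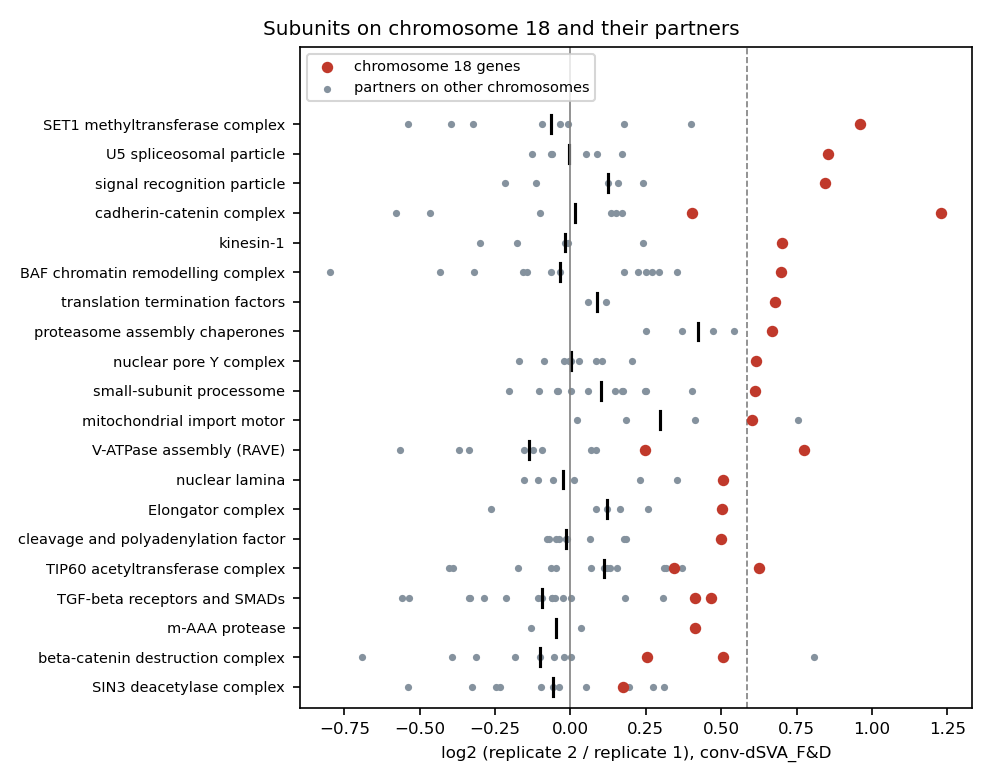
Log2 ratio of conv-dSVA_F&D replicate 2 over replicate 1 (horizontal axis) for chromosome 18 members (red) and partner genes on other chromosomes (grey) in 20 complexes or pathways (vertical axis). Black ticks are partner medians, between -0.14 and 0.42, and the dashed line is log2 of 3/2. Members lie right of the partner median in each of the 20.

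The comparisons between lines ask what the SVA deletions change. Since both comparisons of conv-dSVA_F&D include replicate 2, on which the panel was selected, they are not independent of that choice, and they share the conv-dSVA_F&D libraries. With limma on log2 of normalized count plus 1 and adjustment over 15240 genes, conv-dSVA_F&D had 1 of 60 members higher and none lower relative to conv-dSVA_D (3.16% of all genes were called). The log2 differences had a median of 0.29 and were positive for 53 members. An unadjusted p under 0.05 was found for 20 members, all of them higher, and for 3022 of all 15240 genes in either direction. Against conv-dSVA_F, 1 member was higher and none lower (3.92% of all genes called), with a median of 0.29 and positive values for 54 members. Here 15 members had an unadjusted p under 0.05, and so had 3159 of all 15240 genes. DESeq2 called 3 members against conv-dSVA_D and 6 against conv-dSVA_F, all of them higher. Of all genes it called 652 higher and 353 lower against conv-dSVA_D, and 531 higher and 615 lower against conv-dSVA_F. EdgeR called 1 member higher in each. Of all genes edgeR called 298 higher and 165 lower against conv-dSVA_D, and 250 higher and 303 lower against conv-dSVA_F.

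The member called in both was Rprd1a. Its level was 1616 ± 403 normalized counts in conv-dSVA_F&D, 527 ± 29.8 in conv-dSVA_F and 788 ± 1.62 in conv-dSVA_D (SD, n = 2 each). It was higher than in conv-dSVA_D by a log2 difference of 1.01 ± 0.18 (standard error; limma adjusted p = 0.0199) and than in conv-dSVA_F by 1.59 ± 0.18 (adjusted p = 0.0108), in 2 of 2 libraries each. Without conv-dSVA_F&D replicate 2 the difference from conv-dSVA_F was 1.34 and still passed (adjusted p = 0.0106), while that from conv-dSVA_D was 0.76 and did not (0.0529). The call against conv-dSVA_D was also lost without conv-dSVA_D replicate 1 (adjusted p = 0.143) or 2 (0.137), and the call against conv-dSVA_F without conv-dSVA_F replicate 1 (0.126), where 1 lone library is assumed to vary like the other groups. Rprd1a (ENSMUSG00000040446) lies on the minus strand of chromosome 18, at 24484960 to 24530204 in GRCm38, with no annotated overlap of its exons.

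The members with the next smallest p did not pass. In conv-dSVA_F&D against conv-dSVA_D they were Mbd2 (0.87 ± 0.23, limma adjusted p = 0.0717), Bin1 (0.85 ± 0.23, 0.0821), Ndfip1 (0.46 ± 0.14, 0.117), Epc1 (0.49 ± 0.16, 0.120) and Sil1 (0.80 ± 0.26, 0.120). Against conv-dSVA_F they were Sap130 (0.53 ± 0.14, limma adjusted p = 0.0672), Csnk1a1 (0.53 ± 0.15, 0.0847), Lmnb1 (0.52 ± 0.15, 0.0923), Apc (0.43 ± 0.13, 0.0931) and Nars (0.57 ± 0.18, 0.115). Csnk1a1 and Nars show how the replicates entered. Csnk1a1 averaged 10869.7 ± 2666 normalized counts in conv-dSVA_F&D, 7409 ± 19.8 in conv-dSVA_F and 7998 ± 25.7 in conv-dSVA_D (SD, n = 2 each), and Nars 10748 ± 3349 normalized counts in conv-dSVA_F&D, 7083 ± 59.2 in conv-dSVA_F and 7659 ± 493 in conv-dSVA_D (SD, n = 2 each). In both the SD in conv-dSVA_F&D was larger than in the other lines.

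The number of calls depended on the conv-dSVA_F&D library in the fit. With replicate 2 alone, 21 members were higher than in conv-dSVA_D (5.02% of all genes called, panel median 0.54) and 22 higher than in conv-dSVA_F (5.68% of all genes, panel median 0.57), and none was lower. Replicate 2 is the library on which the members were chosen, so these counts follow from that choice and are not a test of the panel. With replicate 1 alone, 0 members were called against conv-dSVA_D by limma (1.97% of all genes; 5 members at an unadjusted p under 0.05, other tools not run on this subset) and 1, Rprd1a, against conv-dSVA_F (2.76% of all genes). The panel medians were then 0.04 and 0.04. In each of these fits 1 lone library was assumed to vary like the other groups.

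**Figure D5:**
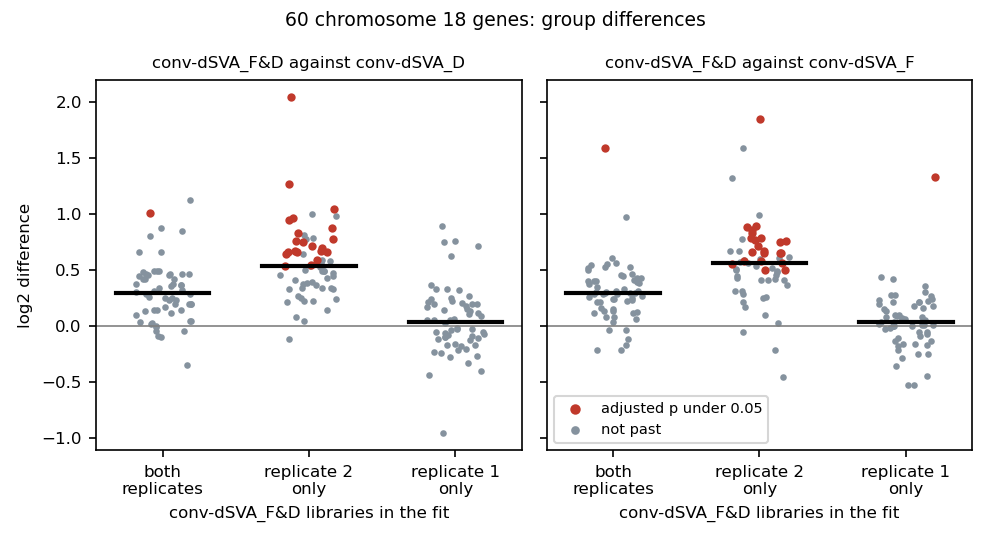
Log2 differences (vertical axis) of the 60 members in conv-dSVA_F&D against conv-dSVA_D (left) and against conv-dSVA_F (right), fitted with both conv-dSVA_F&D libraries, with replicate 2 only and with replicate 1 only (horizontal axis). Red points passed an adjusted p of 0.05 in limma and black bars are medians. Calls number 1, 21 and 0 on the left and 1, 22 and 1 on the right, where replicate 2 is the library that chose the members.

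The groups of conv-dSVA_F against conv-dSVA_D hold no conv-dSVA_F&D library, although the conv-dSVA_F&D libraries enter the spread shared by the fit. With limma 0 members passed (1.35% of all genes were called), and 5 had an unadjusted p under 0.05, as had 2541 of all 15240 genes. EdgeR called 0 members, with 185 genes higher and 40 lower. DESeq2 called 1 member, with 544 genes higher and 178 lower. The panel median was -0.04. Bin1 had the smallest p, with 247 ± 17.6 normalized counts in conv-dSVA_F and 121 ± 3.20 in conv-dSVA_D (SD, n = 2 each) and a log2 difference of 1.03 ± 0.23 (adjusted p = 0.0646). Rprd1a stood at -0.58 ± 0.18 (adjusted p = 0.144) and Cdh2 at -1.32 ± 0.44 (adjusted p = 0.176). The calls changed with the conv-dSVA_F&D library kept: without conv-dSVA_F&D replicate 1, Bin1 (limma adjusted p = 0.0468) and Rprd1a (0.0474) passed, and without its replicate 2, Bin1 (0.0463) did, with 3.18% of all genes called in each case.

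The ratios to the wild type chose the members, so the mean of the converted lines against the wild type is given as a description. Its median over the panel was 0.09, 37 of 60 members were positive, and none passed with limma (1.15% of all genes called). Calls by other tools are given with the processing alternatives below. Sap130 stood at 0.70, with every converted library above the wild type. The count of members past the threshold was 5 without conv-dSVA_F&D replicate 1 (2.62% of all genes) and 1 without its replicate 2 (3.93% of all genes). All these counts rest on values that chose the members and are not a test. This fit takes the spread of the converted lines for the lone wild-type library.

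The median residual SD of the 4-group fit was 0.24 over the members and 0.23 over all 15240 tested genes, but 0.18 over genes with a mean of at least 50, the limit that every member passed. It was 0.27 over the 206 other chromosome 18 genes.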

How the data were processed

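The authors deposited a signal per gene and library: normalized counts, which the values show to be whole reads over a size factor of each library, kept to 2 decimals. STAR 2.7.3, featureCounts 1.6.3, Trimmomatic 0.36, Picard 2.18.20, deepTools 3.1.0, DESeq2 and the build mm10 are named in the submitters' processing notes, without the strand setting. The smallest step of each column gave back the reads: 100% of values above 0 were whole to within 0.1 read. A gene at 0 had no read assigned to it, but its expected number could be up to about 3 reads, or 2.45 to 4.18 normalized counts by library.

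The 7 columns were matched to samples by title. Group comparisons used limma 3.58.1 (R 4.3.3) with a variance trend on log2 of normalized count plus 1, with 4 group means, for 15240 genes with a mean of at least 10; two-sided p-values were adjusted by Benjamini and Hochberg's method over these genes, threshold 0.05. They measure the spread between these libraries, which may be technical. On simulated data for conv-dSVA_F&D against conv-dSVA_D (15240 genes) the fit recovered 99 of 100 genes changed 2-fold and 100 of 100 changed 4-fold. The simulation used 1 fixed spread for all genes, changed only genes with a mean above 100 and changed both conv-dSVA_F&D libraries alike. It does not show how often smaller changes, or changes in 1 library only, would be called. On the recovered reads, edgeR 4.0.16 called 463, 553, 225 and 305 genes in conv-dSVA_F&D against conv-dSVA_D and against conv-dSVA_F, in conv-dSVA_F against conv-dSVA_D and in the converted lines against the wild type; DESeq2 1.42.0 was also run. Ratios between single libraries have no test.

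The members, role groups and partner lists were chosen with earlier results of these data known. All members may be named; values in every library are given for the 5 highest and 5 lowest replicate ratios, the highest mean of each role group, the 6 smallest p in each conv-dSVA_F&D comparison and 5 set genes. The 2 partners with the highest mean per complex were named for the complexes described, others as exceptions after their values were seen.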

Additional observations from a re-analysis of the deposited data

How the results depend on the processing

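Under the scaling, pseudocount and filter alternatives, each of the 49 members whose conv-dSVA_F&D replicates differed by a log2 ratio of at least 0.32 kept its direction: of 341 values 330 moved by less than the replicate spread, 11 values of 9 genes moved more and 0 changed sign. TMM scaling put the panel's median ratio between conv-dSVA_F&D replicates at 0.48, that of the other chromosome 18 genes at 0.49 and conv-dSVA_D replicate 2 over the wild type at 0.024. Scaling by total reads gave 0.40 and 0.42 and partners -0.12, but shifted the median of all genes by -0.10, so that the panel less all genes remained 0.51; over the wild type it gave 0.12 for conv-dSVA_F&D replicate 1, 0.092 and 0.076 for conv-dSVA_F and 0.098 and 0.095 for conv-dSVA_D. Size factors from autosomal genes outside chromosomes 6, 8 and 18 gave 0.53 for the other chromosome 18 genes and -5.3e-05 and 0.012 for conv-dSVA_F over the wild type. A mean of at least 200, which 56 members reach, gave 0.53 for the other chromosome 18 genes, 0.044 for conv-dSVA_F&D replicate 1 and 0.012 for conv-dSVA_D replicate 1 over the wild type, and no filter gave 0.45 for the other chromosome 18 genes. In conv-dSVA_F&D against conv-dSVA_D, no variance trend and no filter called 0 members (7 and 9 at an unadjusted p under 0.05) and 0 genes, DESeq2 3 and 1005; leaving out 1 library gave 0 to 21 members and 0 to 765 genes. Against conv-dSVA_F, no variance trend and no filter called 0 (3 and 7) and 0, DESeq2 6 and 1146; leaving out 1 library gave 0 to 22 members and 0 to 865 genes. In conv-dSVA_F against conv-dSVA_D, DESeq2 called 1 member and 722 genes, no variance trend 1 gene and no filter 0; leaving out 1 library gave 0 to 2 members and 0 to 485 genes. For the converted lines against the wild type, DESeq2 called 2 members and 804 genes, pseudocount 5 1 member and 275 genes, no variance trend 1 gene, no filter 906 and edgeR 305; leaving out 1 library gave 0 to 5 members and 2 to 599 genes. The cause of these changes was not tested. Without conv-dSVA_D replicate 1 or 2 no member was called against conv-dSVA_D (limma; 9 at an unadjusted p under 0.05 each), without conv-dSVA_F&D replicate 2 none (5), and without conv-dSVA_F replicate 1 none against conv-dSVA_F (7); the lone library was taken to vary like the other groups, and other tools were not run on these subsets. No paired analysis was possible because the labels give no replicate numbers. Depth limits Hdhd2, Cdh2 and Tnfaip8 most, with as few as 75 reads in the conv-dSVA_F&D libraries. Hdhd2 was lower still in conv-dSVA_D replicate 1, at 41.3 normalized counts, against 68.7 in conv-dSVA_F&D replicate 1.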
